A study of Rattus norvegicus with 138 samples.

Results

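The 10 genes described here encode surface proteins, receptors and receptor ligands of blood vessel endothelium: Pecam1, Cdh5, Kdr, Flt1, Tek, Tie1, Eng, Angpt1, Angpt2 and Plvap. They were taken by symbol from the deposited table of TPM values, a measure of transcript abundance scaled for gene length and for the library's total, which lists 16181 symbols. All 10 were present and all 10 passed the filter on low values, so each was tested beside 11328 genes in all. The list was set by gene function, with earlier results of these data known.

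Vascular endothelial cells line the vessels that feed skeletal muscle, and new capillaries grow when muscle is wounded and rebuilt. Vascular endothelial growth factors act on the receptor tyrosine kinases KDR, which drives endothelial growth, and FLT1, which binds the same ligands and limits their supply. The angiopoietins act on a second receptor system, in which ANGPT1 activates TEK and quietens vessels, ANGPT2 competes with it in most settings and loosens them, and TIE1 is the partner receptor of TEK without a ligand of its own that is generally accepted.

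The study followed the tibialis anterior (TA) muscle of male Lewis rats, an inbred strain, of about 4 months of age, after volumetric muscle loss (VML), an injury in which a 6 mm biopsy punch removed full-thickness tissue from the middle of the left TA. The defect was left unrepaired or filled at once with a minced muscle graft (MMG), made from the rat's own excised tissue, and muscles were taken at 3, 7, 14 and 28 days. The contralateral TA of the same rats, labelled NoVML, and both TA muscles of 2 rats without surgery, labelled Sham at day 0 and called control here, were the references. Some rats carry the label Run, which the sources used here do not describe further. Of 138 libraries, 9 had labels that contradicted each other and entered no group, and 13 with fewer than 7000 symbols above 1 TPM were dropped. The remaining 116 libraries came from 114 muscles of 78 rats in 31 groups. Non-running groups held 3, 8, 4 and 4 unrepaired injured muscles and 7, 8, 4 and 4 grafted injured muscles at 3, 7, 14 and 28 days, with 2, 4, 2 and 2 contralateral muscles of unrepaired rats, 2, 6, 2 and 2 of grafted rats, and 4 control muscles. Running groups held 8, 4, 4 and 2 unrepaired and 6, 4, 4 and 2 grafted injured muscles at the same days.

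The promoter sequences are shown of the 5 genes that had an entry in the promoter table. They include genes that rose in injured muscle, as described further on (Plvap, Tie1 and Eng), and the growth factor receptors Kdr and Flt1, which on the deposited scale passed the fold threshold on no day. Each is the stretch of 250 bases before the gene's start in RefSeq's annotation of the rat build GRCr8, printed 5′ to 3′ on the gene's own strand, at chr14:32571813-32572062 on the plus strand for Kdr, chr12:12333180-12333429 on the plus strand for Flt1, chr5:137304982-137305231 on the minus strand for Tie1, chr3:36332029-36332278 on the plus strand for Eng and chr16:18231280-18231529 on the minus strand for Plvap. The files themselves were made on build 6.0, and no coordinate was carried between the builds. Capitals mark GGAA and its reverse complement TTCC, the core bound by ETS transcription factors, the family that holds the endothelial regulators ERG and FLI1.
Kdr promoter: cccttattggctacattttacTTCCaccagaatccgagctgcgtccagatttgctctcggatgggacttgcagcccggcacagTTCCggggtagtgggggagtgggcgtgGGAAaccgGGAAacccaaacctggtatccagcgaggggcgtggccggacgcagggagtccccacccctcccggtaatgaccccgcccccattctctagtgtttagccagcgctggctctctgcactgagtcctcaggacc
Flt1 promoter: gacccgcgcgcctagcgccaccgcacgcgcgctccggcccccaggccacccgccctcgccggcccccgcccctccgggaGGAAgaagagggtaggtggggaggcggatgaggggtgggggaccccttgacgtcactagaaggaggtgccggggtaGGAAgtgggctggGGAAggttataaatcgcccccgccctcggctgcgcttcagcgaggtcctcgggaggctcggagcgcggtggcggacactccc
Tie1 promoter: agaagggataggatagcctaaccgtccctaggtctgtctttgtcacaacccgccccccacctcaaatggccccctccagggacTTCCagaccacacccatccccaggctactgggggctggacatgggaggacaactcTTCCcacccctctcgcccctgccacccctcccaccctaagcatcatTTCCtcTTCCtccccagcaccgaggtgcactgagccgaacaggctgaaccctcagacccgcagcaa
Eng promoter: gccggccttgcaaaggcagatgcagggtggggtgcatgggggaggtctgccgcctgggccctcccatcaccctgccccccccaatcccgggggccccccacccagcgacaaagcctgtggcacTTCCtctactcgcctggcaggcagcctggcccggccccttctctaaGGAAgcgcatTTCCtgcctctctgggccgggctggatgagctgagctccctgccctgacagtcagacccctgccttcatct
Plvap promoter: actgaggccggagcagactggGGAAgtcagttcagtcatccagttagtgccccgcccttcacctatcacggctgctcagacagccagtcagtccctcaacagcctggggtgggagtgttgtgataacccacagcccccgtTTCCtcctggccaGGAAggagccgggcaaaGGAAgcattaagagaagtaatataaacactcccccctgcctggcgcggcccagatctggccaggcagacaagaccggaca
The core occurred 4 times in the Kdr, Tie1 and Plvap windows and 3 times in the Flt1 and Eng windows. It is common: 93.2% of the 33469 promoters of this length held it at least once, 55.5% held it 3 or more times and 34.7% held it 4 or more times. The bases G and C made up 61.6% of the Kdr and Tie1 windows, 73.2% of Flt1, 68.0% of Eng and 59.2% of Plvap, against a median of 51.2% over all promoters. The letters TATAAA, the core of the TATA box, searched on both strands, stood once each in the Flt1 and Plvap windows and in 12.9% of all promoters. Pecam1, Cdh5, Tek, Angpt1 and Angpt2 had no entry in the promoter table used here.

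TPM values carry no read depth, so libraries were judged by the number of symbols above 1 TPM. In the 13 dropped libraries ribosomal RNA made up 71.6% to 84.0%, except in the one with 901 symbols, where it was 0.043%. Among the libraries kept, that of unrepaired injured muscle 1 at 7 days held 16.7%. Those of running unrepaired injured muscle 2 at 3 days held 15.4% and 14.8%. The number of symbols ran from 7866 to 10948 in the libraries kept. Control muscle 4 had the 7866 and stood apart from the other 3 control muscles: all 10 genes were lowest there, with a summed level of 70.4 TPM against a highest sum of 135.3 TPM in the other control muscles, and so were 17 other pan-endothelial genes as a sum (77.5 against 166 TPM). Calls of the 10 genes against control that depend on it are named beside the gene. The control rats carry numbers of another series than the operated rats, so that a difference between the 2 sets of animals cannot be told apart from injury in the comparisons with control, whereas contralateral muscles came from the operated rats themselves. The myofiber genes that define the tissue were high in every control muscle, with 11 genes summing to 196050 to 246300 TPM and none at 0. The operated rats were separate animals, contralateral muscles share rats with injured ones, and the comparisons share groups with each other. In whole muscle, more endothelial cells and more RNA per endothelial cell cannot be told apart.

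The scaling of TPM bears on every fold change given here. On the log2 scale the median tested gene was 0.96 higher than control at 3 days, 0.91 at 7 days, 0.53 at 14 days and 0.52 at 28 days in unrepaired muscle. The median of the 10 genes was 0.91, 1.28, 0.85 and 0.67 at the same days. Scaling each library by median-of-ratios size factors brought the median of all genes to 0.09, 0.08, 0.02 and 0.04 and that of the 10 genes to -0.15, 0.27, 0.21 and 0.05. Fold changes are therefore given on the deposited scale and then, where the choice matters, after size factors and relative to other endothelial genes of the same muscle.

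In unrepaired VML-injured muscle a set of endothelial genes rose against control and against the contralateral muscle, namely Plvap, Tie1, Pecam1, Eng, Cdh5 and Tek, each called on at least 1 day in both comparisons, while Kdr, Flt1, Angpt1 and Angpt2 passed the threshold on no day on the deposited scale with these libraries and a pseudocount of 1 TPM. Genes were called at an adjusted p under 0.05 and a log2 fold change beyond 1 in limma on log2(TPM + 1), which understates the change of genes at low levels. Against control 5, 6, 4 and 3 of the 10 genes rose at 3, 7, 14 and 28 days and none fell, where 48.3%, 45.6%, 25% and 21.1% of all tested genes rose and 52.6%, 48.1%, 25.5% and 21.3% were called in either direction. Against contralateral muscle 4, 6, 5 and 2 rose and none fell, beside 32.3%, 45.3%, 20.9% and 13.1% of all tested genes that rose and 38.2%, 47.4%, 21.1% and 13.3% called in either direction. Most of these counts lay near those shares, and the 5 of 10 at 14 days against contralateral muscle lay furthest above. Without control muscle 4 the counts against control were 4, 6, 3 and 1. After size factors the calls against control were of both directions, with 2, 1, 1 and 1 higher (Plvap on each day and Tie1 at 3 days) and 2, 1, 1 and 0 lower (Flt1 at 3, 7 and 14 days and Angpt1 at 3 days). Of all tested genes 24.5%, 21.9%, 15.8% and 11.5% were then higher and 16.9%, 14.2%, 5.9% and 3.17% lower. The filter on low values was applied again after size factors. Shares after size factors are therefore over the genes tested in that fit, whose number differs from 11328. Against contralateral muscle Plvap on each day and Tie1 at 3 days were then called higher, and Angpt1 at 3 days and Flt1 at 7 days lower, beside 20.7%, 18.7%, 10.5% and 7.22% of all tested genes higher and 13.5%, 12.9%, 3.79% and 1.51% lower. With the 13 dropped libraries kept, the calls against contralateral muscle of Pecam1 at 3, 14 and 28 days, of Cdh5 and Eng at 14 days and of Plvap at 28 days were lost (adjusted p = 0.15, 0.071, 0.23, 0.14, 0.13 and 0.083). Against control those of Cdh5 and Tek at 7 days (0.97 and 0.92) and of Cdh5 at 14 days (adjusted p = 0.053) were lost. Kdr and Angpt2 were then called higher than contralateral at 7 days (1.28 and 1.35). The libraries put back held 71.6% to 84.0% ribosomal RNA or, in 1 case, 901 symbols above 1 TPM. None of them was from 14 or 28 days, but all comparisons share the residual variance of the model.

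The order of the levels changed with injury, which TPM allows to be read because it is a level per length. In control muscle the means ran from Cdh5 at 22.8 ± 5.61 TPM (SD, n = 4) through Eng, Pecam1, Flt1, Tie1, Kdr, Angpt1, Angpt2 and Tek to Plvap at 5.42 ± 0.89 TPM, and each gene's range overlapped that of its neighbour in this order. In unrepaired muscle at 7 days Pecam1 (69.5 TPM), Plvap (66.2 TPM), Eng (60.4 TPM), Cdh5 (57.2 TPM) and Tie1 (42.4 TPM) formed an upper set, and Tek (15.0 TPM), Kdr (13.1 TPM), Flt1 (12.99 TPM), Angpt2 (11.6 TPM) and Angpt1 (7.57 TPM) a lower one. Within each set the ranges of neighbours overlapped, whereas the lowest Tie1 value, 28.5 TPM, lay above the highest Tek value, 17.4 TPM. The same 5 genes made up the upper set at 3, 14 and 28 days, each time without overlap with the lower 5. Plvap thus went from the lowest rank in control muscle to the second rank at 7 days, and Flt1 from the fourth rank to the eighth.

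**Figure D1:**
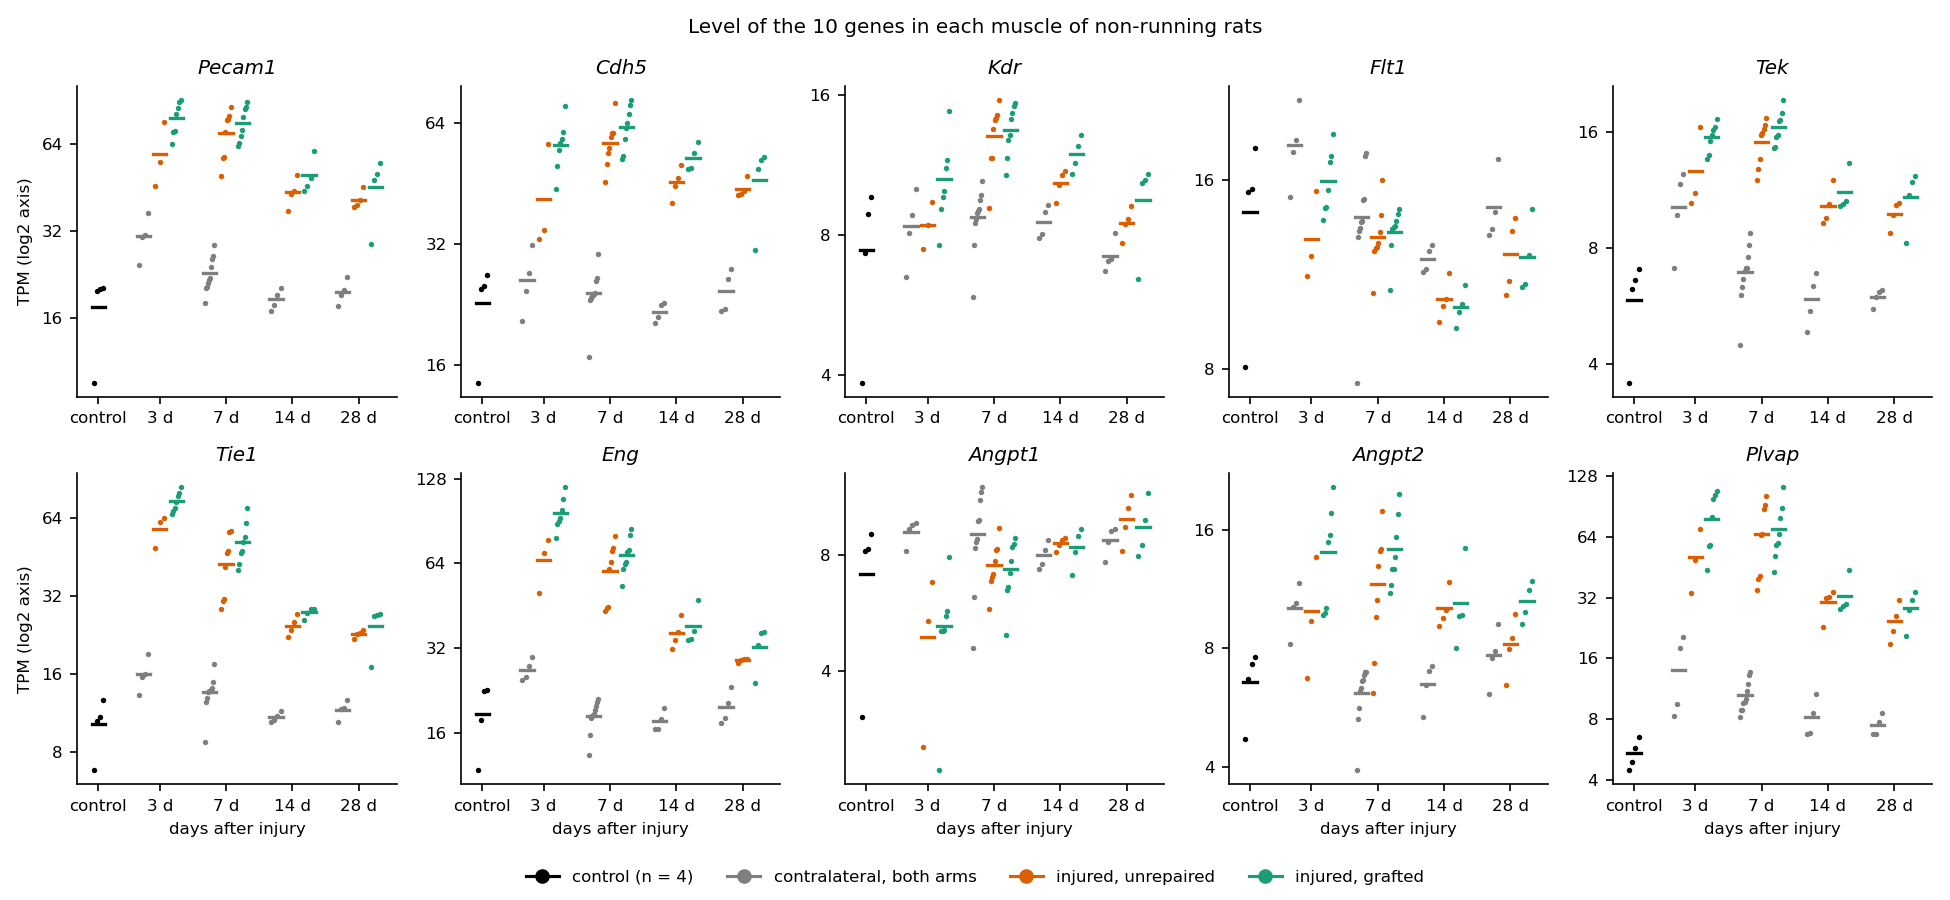
Level of each of the 10 genes in TPM (vertical axis, log2 scale) in every muscle of non-running rats, by group and by days after injury (horizontal axis). Points are muscles and bars are group means; Plvap in injured muscle lies between 18.9 and 113 TPM, above every control muscle (4.48 to 6.50 TPM), while the Flt1 points of injured and reference muscles overlap at 3, 7 and 28 days.

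Among the junction proteins, Pecam1 (CD31, an adhesion molecule of endothelial junctions that leukocytes and platelets also carry) stood at 20.2, 19.8, 20.1 and 9.53 TPM in the control muscles. Unrepaired injured muscles held 55.4, 76.0 and 45.7 TPM at 3 days, a lowest, median and highest value of 49.6, 74.0 and 85.9 TPM over 8 muscles at 7 days, 37.3, 43.0, 49.7 and 44.0 TPM at 14 days, and 40.7, 39.2, 38.5 and 45.2 TPM at 28 days. Every injured muscle lay above every control and every contralateral muscle on all 4 days in both repair arms. Upward separation, here and for other genes below, is given without its share over all tested genes. Differences were common among all tested genes. In unrepaired muscle 85.7%, 88.6%, 74.2% and 73.7% had an unadjusted limma p under 0.05 against control, in either direction. Against contralateral muscle these shares were 73.6%, 88.7%, 67.2% and 56.3%. Against control Pecam1 rose by a log2 fold change of 1.73 ± 0.21 (SE) at 3 days, 1.97 ± 0.17 at 7 days, 1.32 ± 0.19 at 14 days and 1.24 ± 0.19 at 28 days (adjusted p = 3e-12, 4.2e-19, 4.8e-09 and 3.8e-08). Without control muscle 4 the change at 28 days was 0.99 and no longer passed the fold threshold. Against contralateral muscle the log2 fold changes were 1.05, 1.61, 1.28 and 1.02, and after size factors they were 0.48, 0.55, 0.64 and 0.56, below the fold threshold and past the adjusted p. Leaving out contralateral muscle 2 or injured muscle 2 took the 3-day change against contralateral to 0.88 or 0.85, under the threshold, and at 28 days it was 0.86 without contralateral muscle 2 and 0.97 without injured muscle 4.

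Cdh5 encodes VE-cadherin, the cadherin of endothelial adherens junctions, and is among the most endothelium-restricted of the 10. Control muscles held 24.8, 26.8, 25.2 and 14.5 TPM, and unrepaired muscles 34.7, 56.9 and 32.9 TPM at 3 days and 45.8 to 72.0 TPM with a median of 57.2 TPM at 7 days. At 14 and 28 days the 4 muscles of each group lay between 40.6 and 50.5 TPM and between 42.4 and 47.3 TPM. The injured ranges lay above both references on all 4 days. Against control Cdh5 rose by 1.31 ± 0.15 at 7 days and 1.00 ± 0.18 at 14 days on the log2 scale (adjusted p = 8.4e-13 and 7e-07), while 0.83 at 3 days and 0.95 at 28 days passed the adjusted p alone. The 14-day call is at the threshold: it was 0.81 without control muscle 4, 0.99 without injured muscle 2, 0.95 without injured muscle 3 and 0.98 with the control muscles averaged per rat. Against contralateral muscle it rose by 1.30 and 1.05 at 7 and 14 days, the latter 0.98 without contralateral muscle 1. After size factors the change against control at 3 days turned to -0.28, and at 7, 14 and 28 days it was 0.26, 0.33 and 0.30.

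**Figure D2:**
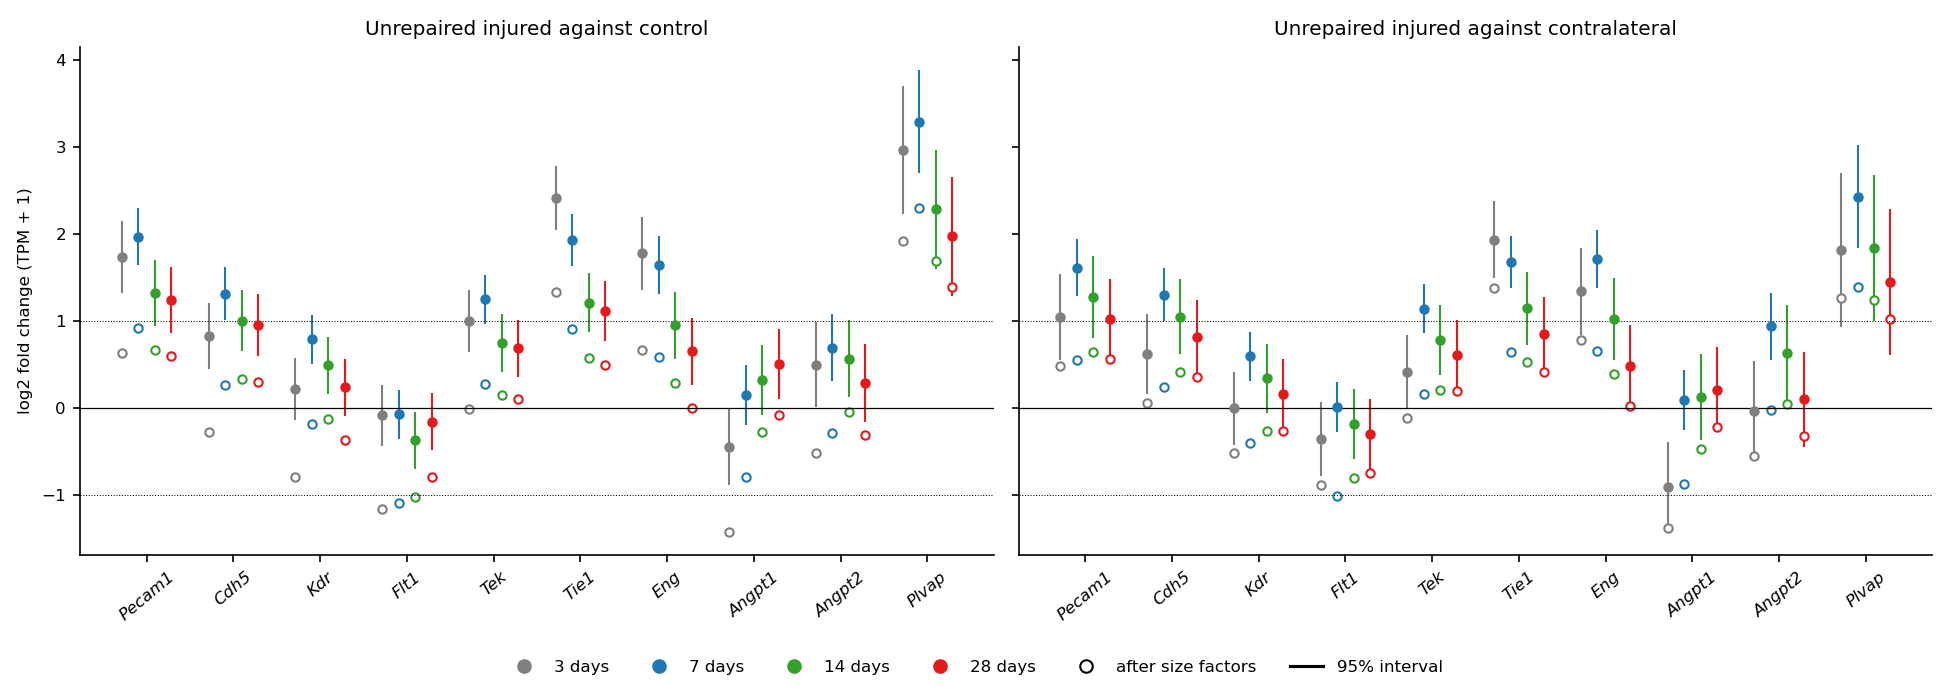
Log2 fold change of TPM + 1 (vertical axis) of each gene in unrepaired injured muscle against control (left) and contralateral muscle (right) on days 3, 7, 14 and 28 after injury. Filled points carry 95% intervals on the deposited scale and open points show the same change after size factors, and dotted lines mark a log2 fold change of 1 in either direction; Plvap stays above 1 in both panels on both scales, while Flt1 lies between -0.37 and 0.01 on the deposited scale and between -1.16 and -0.76 after size factors.

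The growth factor receptors were called on no day on the deposited scale, though Flt1 was called lower on several days after size factors. Kdr (VEGFR2, the main signalling receptor) stood at 8.87, 9.68, 7.31 and 3.85 TPM in control muscle and at 8.39, 9.43 and 7.45 TPM in unrepaired muscle at 3 days, with complete overlap. At 7 days the 8 unrepaired muscles held 9.17 to 15.6 TPM with a median of 13.8 TPM, and at 28 days the 4 muscles held 9.26, 8.66, 8.46 and 7.68 TPM. Against control the log2 fold changes were 0.22, 0.79, 0.49 and 0.23 (adjusted p = 0.25, 5.3e-07, 0.0064 and 0.2), so that 7 and 14 days passed the adjusted p but no day passed the fold threshold. After size factors all 4 turned negative, at -0.80, -0.19, -0.13 and -0.37, and without control muscle 4 the deposited scale gave -0.03 at 3 days and -0.01 at 28 days. Against contralateral muscle the changes were -0.01, 0.59, 0.34 and 0.15, which is larger than the change of 27.1%, 33.3%, 36.1% and 28.0% of all tested genes.

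Flt1 encodes VEGFR1, the receptor that binds growth factor with high affinity and signals weakly, and monocytes also make it. Over group means its Pearson's r to each of the other genes lay between -0.255 and 0.079, while that of Angpt1 reached -0.531. Control muscles held 15.3, 18.0, 15.5 and 8.06 TPM, and unrepaired muscles 11.2, 15.4 and 12.1 TPM at 3 days and 10.6 to 16.0 TPM with a median of 12.6 TPM at 7 days. At 14 days the unrepaired muscles held 9.52, 11.37, 10.1 and 10.3 TPM, under the contralateral muscles of unrepaired rats at 11.42 and 12.3 TPM and of grafted rats at 11.53 and 12.6 TPM, without overlap. Genes below their contralateral range at 14 days made up 7.23% of all tested genes. On the other days the ranges overlapped. Against contralateral muscle the log2 fold changes were -0.36, 0.01, -0.19 and -0.31 and none passed the adjusted p, but they lay below those of all but 16.7%, 13.3%, 7.58% and 4.78% of tested genes. After size factors Flt1 was lower than contralateral by -0.90 at 3 days, -1.01 at 7 days, -0.81 at 14 days and -0.76 at 28 days (adjusted p = 6e-06, 1.6e-12, 3.3e-05 and 0.00017), and 7 days passed the fold threshold. Against control the changes on the deposited scale were -0.09, -0.08, -0.37 and -0.16 (adjusted p = 0.65, 0.62, 0.037 and 0.38). Without control muscle 4 they were -0.32, -0.31, -0.61 and -0.39 (adjusted p = 0.09, 0.048, 0.0011 and 0.036), under the fold threshold. The size-factor values against control were -1.16, -1.09, -1.03 and -0.80, called lower at 3, 7 and 14 days.

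Of the TIE receptors, Tie1 changed early and more than Tek. Tie1 stood at 10.96, 10.6, 12.7 and 6.84 TPM in control muscle, and at 63.9, 61.8 and 49.0 TPM in the 3 unrepaired muscles at 3 days, where the contralateral muscles of the same arm held 15.6 and 13.3 TPM. Unrepaired muscles then held 28.5 to 56.9 TPM with a median of 44.1 TPM at 7 days, 22.2, 23.7, 27.2 and 25.3 TPM at 14 days and 22.9, 21.9, 23.0 and 23.7 TPM at 28 days. No injured muscle reached down into either reference range. Tie1 rose against control by 2.41 ± 0.19, 1.93 ± 0.15, 1.21 ± 0.17 and 1.11 ± 0.17 on the log2 scale at the 4 days (adjusted p = 4.1e-21, 4.1e-21, 2.7e-09 and 4e-08). After size factors 1.33 at 3 days still passed both thresholds, and 0.91, 0.57 and 0.49 passed the adjusted p alone. Against contralateral muscle Tie1 rose by 1.93, 1.68 and 1.14 at 3, 7 and 14 days, and at 28 days 0.85 passed the adjusted p alone. Without control muscle 4 the 28-day value was 0.95, under the fold threshold.

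Tek (TIE2, the angiopoietin receptor) stood at 7.03, 6.26, 6.59 and 3.57 TPM in control muscle, at 11.1, 16.5 and 10.5 TPM in unrepaired muscle at 3 days, and at 12.0 to 17.4 TPM with a median of 15.8 TPM at 7 days. The 3-day values overlapped the contralateral muscles, of which the highest of both arms held 12.4 TPM, and the later days did not. Against control Tek rose by 1.00 ± 0.18 at 3 days and 1.25 ± 0.14 at 7 days on the log2 scale (adjusted p = 4.1e-07 and 4.2e-13), with 0.75 and 0.69 at 14 and 28 days past the adjusted p alone. The 3-day call fell away without control muscle 4 (0.82), without injured muscle 2 (0.81) or with the control muscles averaged per rat (0.98), since the 4 control muscles came from 2 rats. Against contralateral muscle only 7 days was called, at 1.14, and the 3-day change of 0.41 did not pass the adjusted p (0.079). After size factors the changes against control were -0.02, 0.28, 0.14 and 0.10.

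The TEK ligands Angpt1 and Angpt2 differed in their course. Angpt1, which mural cells and other stromal cells make, stood at 8.31, 9.08, 8.19 and 3.02 TPM in control muscle and at 9.35, 9.70, 8.20 and 9.58 TPM in the contralateral muscles of both arms at 3 days. Unrepaired injured muscles held 2.53, 6.80 and 5.4 TPM at 3 days and grafted injured muscles 2.20 to 7.94 TPM with a median of 5.1 TPM, all below the contralateral range. Of all tested genes 17.4% lay below in the unrepaired arm and 15.8% in the grafted arm. Against contralateral muscle the 3-day log2 fold change was -0.91 ± 0.26 in unrepaired and -0.71 ± 0.23 in grafted muscle, which passed the adjusted p (0.0014 and 0.0035) but not the fold threshold, and without injured muscle 2 or 3 the former was -1.15 or -1 and was called, as it was at -1.05 with a pseudocount of 0.1 TPM. Against control it was -0.45 ± 0.22 (adjusted p = 0.048), or -0.76 without control muscle 4. At 7 days the unrepaired value against contralateral was 0.09 and the grafted value -0.45 (adjusted p = 0.0053), and at 14 and 28 days neither arm passed. After size factors the unrepaired values were -1.39, -0.88, -0.48 and -0.22. The first of these was called lower, as was -1.43 against control.

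Angpt2, which endothelial cells store and release, stood at 6.69, 7.31, 7.60 and 4.70 TPM in control muscle and at 13.7, 9.39 and 6.74 TPM in unrepaired muscle at 3 days. At 7 days unrepaired muscles held 6.18 to 17.8 TPM with a median of 11.8 TPM, and grafted muscles 11.1 to 19.8 TPM with a median of 13.2 TPM against 6.24 to 6.98 TPM in the contralateral muscles of grafted rats. The unrepaired group overlapped both references at 7 days and the grafted group neither. At 14 days both arms lay above both references, with 9.14 to 11.8 TPM in unrepaired and 8.04 to 14.4 TPM in grafted muscle. The highest control and contralateral muscles then held 7.60 and 7.22 TPM. Against contralateral muscle the changes at 7 days were 0.94 ± 0.20 and 0.97 ± 0.17 on the log2 scale in the unrepaired and grafted arms (adjusted p = 8.8e-06 and 2.9e-07), both under the fold threshold, which the former passed at 1.02 to 1.05 when injured muscle 6 or 8 or contralateral muscle 4 was left out and at 1.05 with a pseudocount of 0.1 TPM. After size factors they were -0.03 and 0.11. The unrepaired 7-day group combines rats of a lower and of a higher range of numbers: against control, Angpt2 was called in the former (1.07) and not in the latter (0.31).

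Since both ligands are measured in the same muscle, their ratio of TPM does not depend on the scaling. The ratio of Angpt2 to Angpt1 averaged 1.02 in control muscle (0.81 to 1.56, n = 4). In unrepaired muscle it was 1.25, 1.38 and 5.399 at 3 days, 0.90 to 2.54 with a median of 1.498 at 7 days, and averaged 1.18 at 14 days and 0.83 at 28 days. In grafted muscle the averages were 2.82, 2.07, 1.25 and 1.15. In non-running rats of both arms together, the log2 ratio of TPM + 1 was higher in injured than in contralateral muscle by 1.05 at 3 days (10 against 4 muscles, two-sided exact permutation p = 0.0060), by 1.16 at 7 days (16 against 10, permutation p = 2e-05, the smallest that 100000 resamples can give), by 0.50 at 14 days (8 against 4, exact permutation p = 0.0040) and by 0.12 at 28 days (8 against 4, exact permutation p = 0.59). Adjusted over the 4 days these permutation p-values were 0.0080, 8e-05, 0.0080 and 0.59. At 3 days 9 of 10 injured muscles exceeded every contralateral muscle, at 7 days 16 of 16 and at 14 days 8 of 8. In unrepaired rats alone the difference was 0.87 at 3 days (exact permutation p = 0.4) and 0.85 at 7 days (0.0040), or 0.53 and 0.016 when these p-values are adjusted over the days. The 3-day value rests on injured muscle 1, with the ratio of 5.399, and was 0.30 without it (exact permutation p = 0.67, adjusted 0.89). At 7 days all 4 contralateral muscles of unrepaired rats came from the higher-numbered rats, and in the 4 rats with both muscles the difference was 0.47 (exact permutation p = 0.029, adjusted 0.11). In grafted rats alone the difference was 1.08 at 3 days and 1.42 at 7 days (exact permutation p = 0.056 and 0.00067, adjusted 0.11 and 0.0027). Within non-running rats with both muscles it was up in 4 of 4 rats at 3 days (1.08), 10 of 10 at 7 days (0.94, exact permutation p = 0.0020), 4 of 4 at 14 days (0.53) and 2 of 4 at 28 days (0.04), where 4 pairs cannot give an exact p under 0.125. In running unrepaired rats the log2 ratio was lower in the injured muscle of 1 rat at 3 days (0.49 against 0.55 contralateral). The same held for 1 rat at 14 days (-0.29 against 0.11). It was higher in the other running rats with both muscles.

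**Figure D3:**
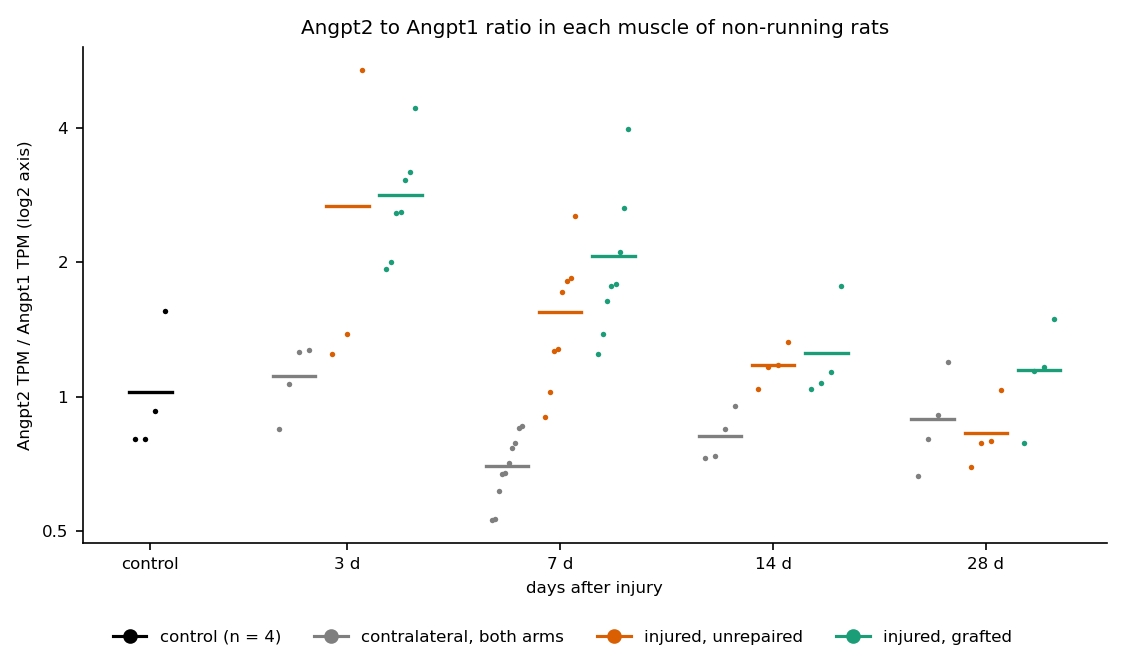
Ratio of Angpt2 TPM to Angpt1 TPM (vertical axis, log2 scale) in each muscle of non-running rats by group and days after injury (horizontal axis), with points for muscles and bars for means. Injured muscles lie highest at 3 and 7 days, up to 5.399, and overlap the contralateral muscles at 28 days.

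Eng encodes endoglin, a co-receptor for bone morphogenetic protein 9 and transforming growth factor beta that activated macrophages also make. It stood at 22.5, 22.9, 17.9 and 11.8 TPM in control muscle and at 77.5, 69.9 and 50.2 TPM in unrepaired muscle at 3 days. At 7 days 8 muscles held 43.5 to 80.3 TPM with a median of 63.0 TPM, and at 28 days the muscles held 29.4, 29.0, 28.4 and 29.4 TPM. The injured ranges lay above both references on all 4 days, by little at 28 days, when the highest contralateral muscle held 23.4 TPM. Eng rose against control by 1.78 and 1.64 at 3 and 7 days on the log2 scale (adjusted p = 1.5e-12 and 4.2e-15), and 0.95 and 0.65 at 14 and 28 days passed the adjusted p alone. After size factors the 4 values were 0.67, 0.59, 0.28 and -8.16e-05. Against contralateral muscle it rose at 3, 7 and 14 days (1.34, 1.71 and 1.02), and the 28-day value of 0.48 did not pass the adjusted p (0.086). Without control muscle 4 the changes against control were 1.59, 1.45, 0.75 and 0.46, with the same days called. The 14-day call fell to 0.95 or 0.97 without injured muscle 3 or contralateral muscle 2.

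Plvap encodes the protein of the diaphragms that span endothelial fenestrae and caveolae, and it showed the largest fold change of the 10 against control on every day. It was the lowest gene in control muscle, at 6.50, 4.93, 5.75 and 4.48 TPM. Unrepaired muscles held 69.95, 49.2 and 33.7 TPM at 3 days, 34.9 to 102 TPM with a median of 65.9 TPM at 7 days, 32.04, 23.0, 34.2 and 32.3 TPM at 14 days and 18.9, 21.8, 25.9 and 31.1 TPM at 28 days. Grafted muscles held 44.1 to 108 TPM at 3 days and 43.0 to 113 TPM at 7 days, and contralateral muscles at 3 days 20.5 and 8.26 TPM in unrepaired and 9.49 and 17.9 TPM in grafted rats. Injured muscles lay above all control and contralateral muscles of the same day. Plvap rose against control by 2.97 ± 0.37, 3.29 ± 0.30, 2.29 ± 0.35 and 1.97 ± 0.35 on the log2 scale (adjusted p = 1.4e-11, 1.2e-17, 1.3e-08 and 6.3e-07), and after size factors by 1.92, 2.30, 1.68 and 1.39. Without control muscle 4 it rose by 2.90, 3.22, 2.21 and 1.90. Against contralateral muscle it rose by 1.82, 2.43, 1.84 and 1.45, and after size factors by 1.27, 1.39, 1.24 and 1.02. Its change against contralateral was larger than that of 84.8%, 91.5%, 94.5% and 94.2% of tested genes. The 3-day value rests on 2 contralateral muscles that differ: without contralateral muscle 2 it was 1.21 with an adjusted p of 0.053, and the call was lost.

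Markers of other cell types changed in the same muscles, with median log2 fold changes against control at 3 days of 5.49 for leukocytes and 5.20 for fibroblasts, and several of the 10 genes are also made outside endothelium. Leukocyte markers rose against control in 12, 12, 11 and 11 of 12 measured genes at 3, 7, 14 and 28 days, and their sum was 19.5 to 41.5 TPM in control muscle, 4786 to 6373 TPM in unrepaired muscle at 3 days, 671 to 3162 TPM at 7 days, 446 to 548 TPM at 14 days and 252 to 825 TPM at 28 days, with none at 0 in any of these groups. Fibroblast markers rose in 7 of 7 on all 4 days, with sums of 72.8 to 236 TPM in control and 4269 to 7269 TPM at 3 days. Myofiber markers fell in 11, 7, 3 and 1 of 11, from 196050 to 246300 TPM in control to 36348 to 50825 TPM at 3 days. The 17 other pan-endothelial genes summed to 77.5 to 166 TPM in control and to 294 to 429, 337 to 555, 308 to 355 and 280 to 283 TPM in unrepaired muscle at the 4 days. Over the 31 group means, Tie1 and Eng followed the leukocyte mean with r = 0.984 and 0.977, Pecam1 with 0.950, Plvap with 0.943, Cdh5 with 0.873, Kdr with 0.645 and Flt1 with -0.023. Tie1 and Eng followed the other pan-endothelial genes with r = 0.963 and 0.950. Within groups they followed those genes with r = 0.871 and 0.858 and the leukocyte mean with 0.653 and 0.638, whereas Plvap gave 0.592 and 0.706. These groups share the course of injury, and the part of leukocytes in the Pecam1, Tie1, Eng and Plvap results was not tested.

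A comparison with other endothelial genes of the same muscle was made by taking each gene's log2 level minus the mean log2 level of the 17 other pan-endothelial genes in the same muscle, which removes most of the scaling of TPM. The values remain those of whole muscle, including what other cell types add to each gene. Of those 17, Cd34, Cd93 and Icam2 are also made by other cells, and Cd34 itself rose most among them (2.16 against control at 3 days). Plvap, Tie1 and Pecam1 gained on the other endothelial genes, and Kdr, Flt1 and Angpt1 lost ground. Among 40 tests over 10 genes and 4 days with both arms together, 35 had a two-sided permutation p under 0.05; Cdh5 at 3, 7 and 28 days and Tek at 14 and 28 days did not. Unrepaired rats alone gave 7 and grafted rats alone 7, where groups of 3, 4 or 7 against 2 muscles are too small to reach that level. These tests were run on the 10 genes alone. No share over all tested genes therefore stands beside the 35 or beside the counts of separated muscles below. In the model over all genes, differing from the endothelial mean was common, as given below.

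Relative to the other endothelial genes Flt1 differed between injured and contralateral muscle by -1.10, -1.27, -1.11 and -0.99 on the log2 scale at 3, 7, 14 and 28 days. The model over all genes gave -0.97, -1.25, -1.06 and -0.95 in unrepaired and -1.199, -1.30, -1.16 and -1.02 in grafted muscle, each with an adjusted p of 3.01e-06 or lower. Every injured muscle lay below every contralateral muscle of the same day, in 10 of 10, 16 of 16, 8 of 8 and 8 of 8 muscles (exact permutation p = 0.0020, 0.0040 and 0.0040 at 3, 14 and 28 days and permutation p = 2e-05 at 7 days). Kdr differed by -0.63, -0.66, -0.55 and -0.47, again with all injured muscles below all contralateral muscles on each day. Angpt1 differed by -1.63, -1.44, -0.82 and -0.62, a gap that was widest at 3 days. Angpt2 differed by -0.58, -0.28, -0.32 and -0.50, so that both of these TEK ligands were lower against endothelial genes while their ratio moved to Angpt2. In the model, 32.2%, 52.3%, 42.7% and 27.8% of all tested genes were lower than the endothelial mean by adjusted p in unrepaired muscle, so being lower than it was common.

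Plvap was higher relative to the other endothelial genes by 1.41, 1.31, 0.93 and 0.93 and Tie1 by 1.21, 0.48, 0.29 and 0.21, with every injured muscle above every contralateral muscle on each day for both. Genes higher than the endothelial mean by adjusted p made up 30.6%, 23.7%, 11.6% and 9.44% of all tested genes in unrepaired muscle. In the model Plvap had adjusted p-values of 0.0029, 1.6e-05, 0.016 and 0.059 in unrepaired and 2.1e-05, 1.2e-08, 0.023 and 0.0086 in grafted muscle, and at 28 days the relative level of Plvap differed by 0.11 between grafted and unrepaired injured muscle, which did not pass the adjusted p (0.99999). Pecam1 was higher by 0.37, 0.41, 0.38 and 0.33, and Eng by 0.80, 0.53 and 0.13 at 3, 7 and 14 days before it turned to -0.14 at 28 days. Cdh5 differed by 0.11, 0.06, 0.24 and 0.10 and Tek by -0.35, -0.12, -0.13 and -0.06.

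**Figure D4:**
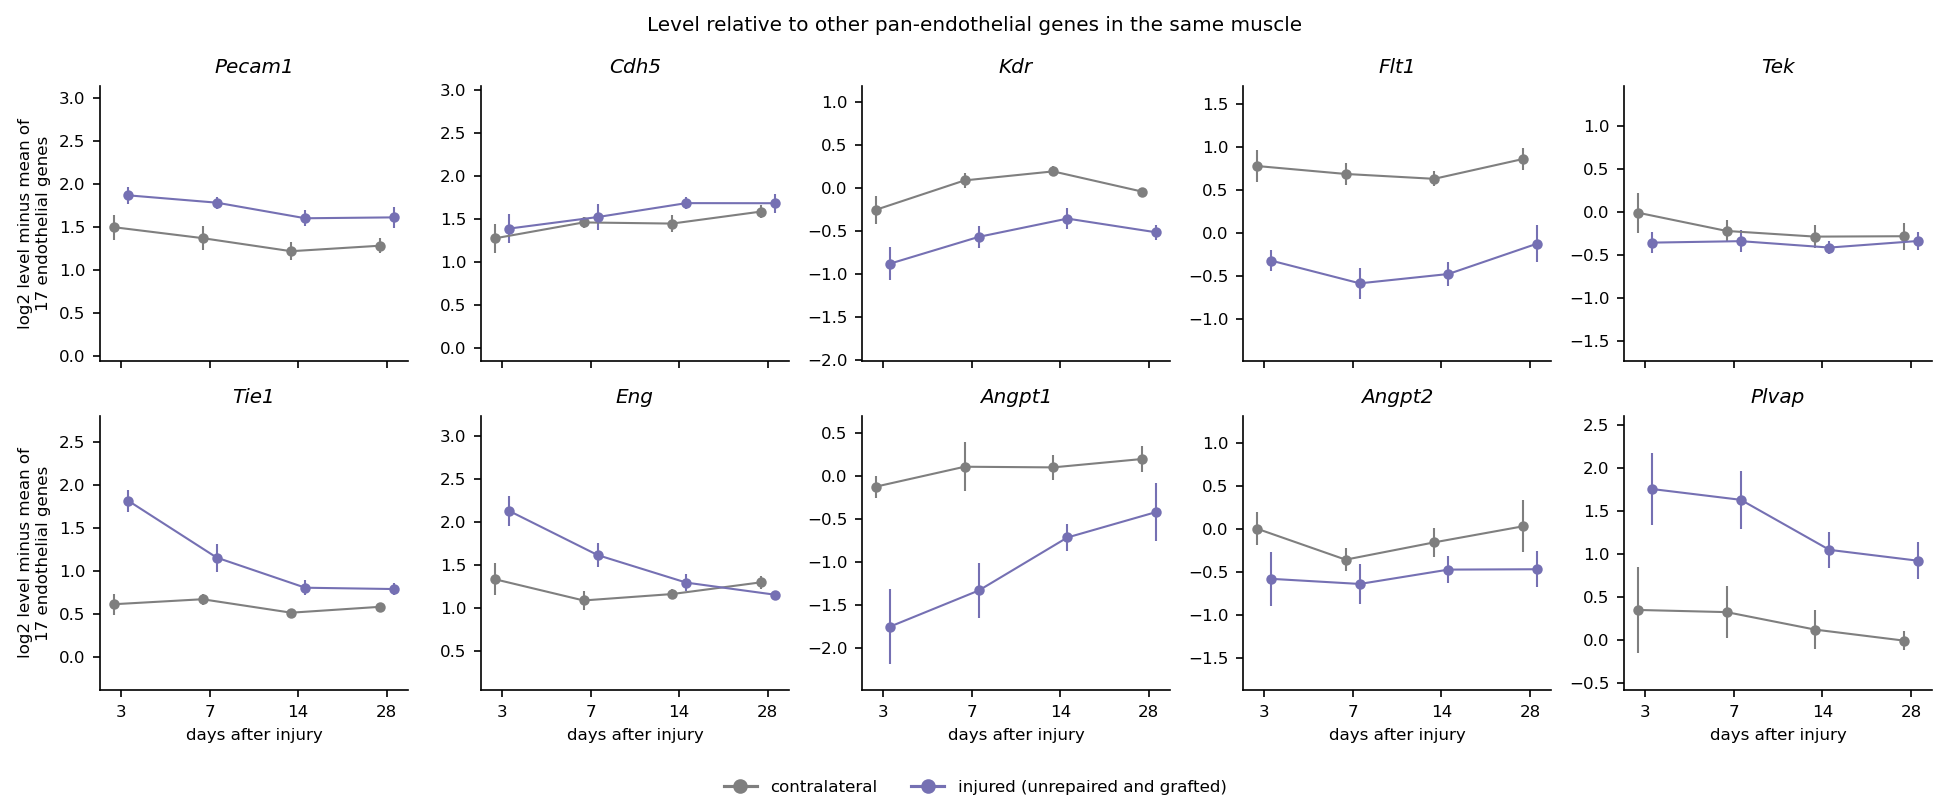
Log2 level of each gene minus the mean log2 level of 17 other pan-endothelial genes in the same muscle (vertical axis) against days after injury (horizontal axis), for contralateral and for injured muscles of both repair arms. Points are means and bars are SD over 4, 10, 4 and 4 contralateral and 10, 16, 8 and 8 injured muscles; Flt1 and Kdr lie below and Plvap lies above the contralateral level on all 4 days, and Tie1 and Eng approach it by 14 days.

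With the MMG, Plvap, Tie1 and Pecam1 rose against contralateral muscle on all 4 days, and no gene of the 10 passed the test between grafted and unrepaired muscle. Grafted against contralateral muscle gave 5, 6, 5 and 3 genes risen at 3, 7, 14 and 28 days and none fallen, where 37.2%, 42.9%, 25.6% and 18.8% of all tested genes rose and 44%, 46.2%, 26.1% and 19.1% were called in either direction. Plvap rose there by 2.43, 2.596, 1.81 and 1.91 on the log2 scale, Tie1 by 2.02, 1.76, 1.22 and 1.06 and Pecam1 by 1.20, 1.65, 1.28 and 1.14, while Flt1 gave -0.28, -0.11, -0.24 and -0.17. After size factors 3, 1, 1 and 1 genes were called higher (Plvap at 1.74, 1.69, 1.15 and 1.37, with Tie1 at 1.32 and Eng at 1.0022 at 3 days) and 1, 1, 0 and 0 lower (Angpt1 at -1.30 at 3 and 7 days). Of all tested genes 21.7%, 21.2%, 13.1% and 9.64% were then higher and 15.8%, 13.7%, 6.34% and 3.32% lower. In the direct comparison of grafted with unrepaired injured muscle limma called none of the 10 on any day, where 0.00883%, 0.0883%, 0.0265% and 0% of all tested genes were called. At an unadjusted p under 0.05 stood 5, 2, 0 and 0 of the 10 genes, beside 17.3%, 27%, 5.23% and 1.24% of all tested genes. At 3 days all 10 fold changes were above 0, as was the median of all genes at 0.14, and the largest were Plvap at 0.61 ± 0.34 (adjusted p = 0.32), Eng at 0.56 ± 0.19 (0.18) and Cdh5 at 0.47 ± 0.17 (0.2). The lowest adjusted p was that of Tie1 at 7 days, 0.095, with a log2 fold change of 0.31 ± 0.12. The 95% interval of the difference included a log2 fold change of 1 for Plvap at 3 days alone (-0.06 to 1.28), so for the other genes and days a change of that size lies outside the interval.

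Running gave no called gene in limma, in unrepaired or grafted muscle, with 3 of the 10 at an unadjusted p under 0.05 in unrepaired muscle at 3 days, beside 14.5% of all tested genes, and 0 in the other comparisons, beside 0.627% to 21.3%. Among all tested genes 0.0441%, 0%, 0.0177% and 0.0177% were called in unrepaired muscle at the 4 days and 0% in grafted muscle on each day. Running unrepaired muscles held Plvap at 38.4 to 131 TPM with a median of 61.2 TPM over 8 muscles at 3 days, and at 63.8, 59.2, 187 and 63.3 TPM at 7 days. The third of those 7-day muscles was also highest for Pecam1 (137 TPM), Eng (113 TPM), Cdh5 (93.7 TPM) and Tie1 (74.1 TPM). The largest differences from non-running muscle were 0.45 ± 0.19 for Eng (adjusted p = 0.25) in unrepaired muscle at 3 days, 0.41 ± 0.30 for Plvap (0.41) in unrepaired muscle at 7 days and -0.45 ± 0.27 for Plvap in grafted muscle at 3 days (adjusted p = 1). The only intervals that reached a log2 fold change of 1 were those of Plvap in unrepaired muscle, with -0.25 to 1.06 at 3 days and -0.19 to 1.00 at 7 days. Since the running groups at 28 days held 2 muscles each, their values describe those muscles.

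**Figure D5:**
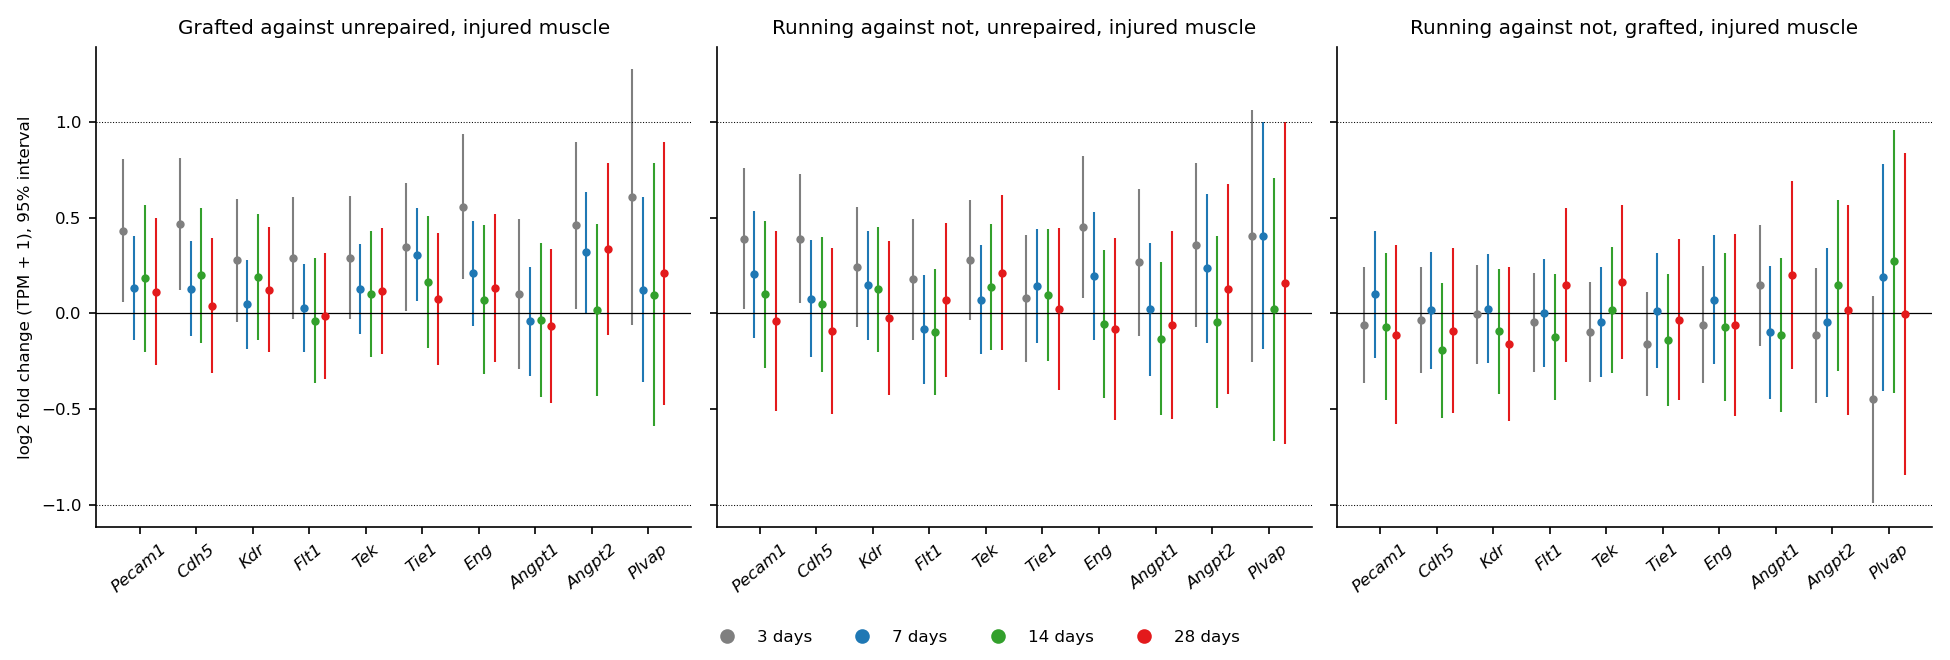
Log2 fold change of TPM + 1 with its 95% interval (vertical axis) of each gene between grafted and unrepaired injured muscle (left) and between running and non-running injured muscle, unrepaired (middle) and grafted (right), on days 3, 7, 14 and 28 after injury (colours). Dotted lines mark a log2 fold change of 1 in either direction; point estimates lie between -0.45 and 0.61 and none passed the test.

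The contralateral muscle differed from control muscle at 3 days on the deposited scale. Plvap stood at 20.5, 8.26, 9.49 and 17.9 TPM in the 4 contralateral muscles against at most 6.50 TPM in control muscle, without overlap, and rose by 1.15 ± 0.35 on the log2 scale (adjusted p = 0.003), the only gene of the 10 to be called, where 7.15% of all tested genes were called and 7.09% rose. After size factors it was 0.64 (adjusted p = 0.12) and no longer called. Nor was it called without the first contralateral muscle of unrepaired rats (0.84, adjusted p = 0.054), without the second of grafted rats (0.93, below the fold threshold) or with all libraries kept (adjusted p = 0.098). Pecam1 (0.82), Tek (0.72), Tie1 (0.61), Angpt2 (0.57), Eng (0.54) and Flt1 (0.38) passed the adjusted p alone at 3 days, as did 66.4% of all tested genes, and after size factors none of these 6 or Plvap did, Flt1 (-0.17) and Eng (-0.02) turned negative, and Cdh5 alone passed, at -0.36 (adjusted p = 0.032). At 7 days Plvap alone did (0.84, adjusted p = 0.036), and at 14 and 28 days none did. No gene of the 10 was called on these 3 days, where 1.04%, 1.03% and 0.512% of all tested genes were. Beside this, 10 of 12 leukocyte markers and 7 of 7 fibroblast markers rose in contralateral against control muscle at 3 days, with leukocyte sums of 79.9 to 214 TPM in unrepaired and 150 to 197 TPM in grafted rats, and their part in the Plvap result was not tested.

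Between successive days in unrepaired muscle, Plvap fell from 7 to 14 days by 1.01 ± 0.30 on the log2 scale (adjusted p = 0.0022), the only call among the 10 genes, where 6.82% of all tested genes were called, and after size factors the value was -0.62 (adjusted p = 0.065). Pecam1 (-0.65), Tek (-0.50), Tie1 (-0.72) and Eng (-0.69) passed the adjusted p alone over the same step, as did 71% of all tested genes. The median of all tested genes was -0.40 there. From 3 to 7 days, Kdr (0.57), Angpt1 (0.60) and Cdh5 (0.49) were higher and Tie1 (-0.48) lower by adjusted p alone, as were 38.7% of all tested genes in either direction, where 7.34% of all tested genes were called and none of the 10 was. From 14 to 28 days none of the 10 passed the adjusted p, and 0.459% of all tested genes were called. The Plvap value fell under the fold threshold without any 1 of unrepaired muscles 1 to 5 at 7 days (-0.996 to -0.905) or without muscle 2 at 14 days (-0.885), and with all libraries kept it was -0.652 (adjusted p = 0.44).

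Genes acting with the 10 were described from lists set by function, also with earlier results of these data known. Each count of risen genes stands beside the 48.3%, 45.6%, 25% and 21.1% of all tested genes that rose against control at 3, 7, 14 and 28 days. After size factors 24.5%, 21.9%, 15.8% and 11.5% were called higher and 16.9%, 14.2%, 5.9% and 3.17% lower. A list of 5 further ligands, receptors and co-receptors of vascular endothelial growth factor signalling showed 4, 4, 2 and 2 genes risen against control at 3, 7, 14 and 28 days. After size factors 2 were called higher on each day. Nrp2, a neuropilin co-receptor, rose by 3.20, 2.98, 1.998 and 1.73. Figf, which encodes growth factor D, rose by 3.22, 2.82, 1.92 and 1.31. Nrp1 rose by 1.30 and 1.34 at 3 and 7 days and Pgf, the placental growth factor that binds FLT1, by 1.74 and 1.09. Flt4, the lymphatic receptor, stayed below the threshold with 0.50 at 3 days. All 4 genes tested from a list of angiopoietin-like genes and TIE modulators rose on all 4 days, with Angptl4 at 4.73, 3.70, 2.36 and 2.41, Angptl1 at 2.39, 4.13, 4.28 and 3.79, Angptl2 at 1.62, 3.09, 2.71 and 2.16 and Angpt4, itself an angiopoietin and TEK ligand, at 2.38, 1.82, 1.43 and 1.01. After size factors 3, 4, 4 and 3 of them were called higher.

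In the endoglin pathway 6, 6, 4 and 4 of 9 tested genes rose against control. After size factors 2, 2, 1 and 1 were called higher and 1, 0, 0 and 0 lower. Acvrl1 (ALK1, the signalling partner of endoglin) rose by 1.59, 1.81, 1.34 and 1.06, Smad1 by 1.77, 1.87, 1.29 and 1.14, the target gene Id3 by 2.81, 2.41, 1.496 and 1.29 and Tgfbr2 by 2.44, 2.39, 1.83 and 1.77, while the inhibitory Smad6 (-0.31 at 3 days) and Smad7 (-0.09) did not pass. Gdf2 and Bmp10, which encode the ligands of endoglin and are made in liver and heart, were below the filter. Among genes of sprouting and tip cells 7, 6, 7 and 4 of 9 rose, led by Cxcr4 (3.98 at 3 days), Adm (2.99) and Nid2 (2.89), but Esm1 and Dll4, known targets of growth factor signalling through KDR, gave -0.09 and -0.07 at 3 days and passed the fold threshold on no day. After size factors 4, 3, 4 and 2 of the sprouting genes were called higher and 1, 0, 0 and 0 lower. Capillary genes rose in 2, 4, 3 and 3 of 9 (Kdr is among them), with Cav1 at 1.85 and Fabp4 at 1.92 at 3 days beside Cd36 at -0.15, Aqp1 at -0.28 and Car4 at 0.15, a share below that of all genes at 3 days. After size factors none was called higher and 2, 2, 0 and 0 were called lower. Venous and activation genes rose in 4, 5, 4 and 3 of 5, among them the adhesion molecules Selp (2.37 at 3 days) and Icam1 (3.24). After size factors 2, 3, 2 and 2 were called higher.

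Arterial genes rose in 5, 7, 3 and 3 of 11 against control, with Gja5 at 1.33, 2.36, 1.42 and 1.09, mural genes in 6, 9, 6 and 5 of 11, with Pdgfrb at 2.07, 2.94, 2.12 and 1.75, and lymphatic genes in 3, 3, 3 and 3 of 6, with Lyve1 at 3.98 and Prox1 at 0.58 at 3 days. The 17 other pan-endothelial genes rose in 11, 13, 8 and 4 cases with medians of 1.16, 1.38, 0.99 and 0.92, above the median of all genes, and after size factors in 1, 2, 1 and 1. Platelet and erythroid genes rose in 4, 1, 1 and 1 of 4 tested. After size factors 1, 3, 1 and 1 arterial genes, 2, 4, 1 and 1 mural genes, 3, 3, 3 and 3 lymphatic genes and 1, 1, 1 and 1 platelet and erythroid genes were called higher, and 2 mural genes were called lower at 3 days. Several list genes, such as Cxcr4, Cav1, Lyve1 and Icam1, are made by leukocytes or stromal cells as well, and their cell of origin was not tested.

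Across the 31 group means of log2(TPM + 1), Pecam1 and Plvap varied together with r = 0.990 and Tie1 and Eng with 0.986, which describes the shared course of injury. Flt1 stood apart, with r between -0.255 and 0.079 to each of the other 9. Within groups, after each group's mean was removed from the 114 muscles, Flt1 varied with Kdr at r = 0.694, with Cdh5 at 0.670 and with Pecam1 at 0.581, but with Plvap at 0.079. The growth factor receptors varied together from muscle to muscle inside a group, yet not from group to group, where Kdr and Flt1 had r = -0.255. Angpt1 ran against Tie1 (-0.501) and Eng (-0.531) over group means.

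The genes outside the list whose pattern over the 31 groups was most like each of the 10 were, by Pearson's r, Clstn1, Tm7sf3 and Syde1 for Pecam1 (0.99 each), Erg, Pde10a and Pde3a for Cdh5 (0.98 each), Rnft2 (0.94), Gfra4 (0.92) and Slc16a6 (0.91) for Kdr, Abcc4 (0.87), LOC691153 (0.85) and Fam222b (0.81) for Flt1, and Adcy3, Adgrl4 and Ggt5 for Tek (0.98 each). For Tie1 they were Fli1, Acsl5 and Sp140 (0.99 each), for Eng Klf16, Lrrc8a and Ddx41 (0.99 each), for Angpt1 RGD1310429 (0.88), Slc2a12 (0.87) and Tbx15 (0.87), for Angpt2 Ehmt1 (0.95), Rnf19a (0.95) and Magi1 (0.95), and for Plvap Clstn1, Scarb1 and Dnm1 (0.99 each). Erg and Fli1 encode ETS factors of the kind whose core letters are marked in the promoters. A link between these factors and the levels of the 10 genes was not tested, and Cdh5 had no promoter entry. With Flt1, Kdr and Angpt1 the closest patterns were less close than with the other 7 genes, of which the lowest top value was that of Angpt2.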

How the data were processed

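The authors deposited one table of TPM values per gene symbol, made from Truseq libraries of total RNA with Kallisto at default parameters on the rat genome build 6.0 with Genbank annotation. The Kallisto version is not given in the sources used here, and TPM carries no read depth, so no counting interval is given. The 10 genes and the other lists were chosen with earlier results of these data known. An incomplete entry for Tubb4a was left out. Libraries with fewer than 7000 symbols above 1 TPM were dropped (13 of 129 assigned, with 901 to 5712 symbols), and libraries of the same muscle were averaged, which touched 2 muscles.

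Levels were compared as log2(TPM + 1) in limma 3.58.1 (R 4.3.3, statmod 1.5.0) over 11328 genes and 114 muscles with 31 group means and 83 residual degrees of freedom. A gene was called at a Benjamini-Hochberg adjusted p under 0.05 and a log2 fold change beyond 1; the study set its own thresholds for read counts. The rule for named genes took all 10 genes in each comparison, the 3 genes most like each in pattern, and from each list genes with the highest mean TPM or a defining role; list genes given for the size of their change, such as Adm, Nid2 and Cd34, were chosen after their values were seen. Single values were compared by permutation with scipy 1.17.1 in Python 3.11.15, exact where a group held fewer than 10 muscles. Tables were handled with pandas 2.3.3 and numpy 2.4.6 and plots drawn with matplotlib 3.10.9. Size factors ran from 0.38 to 1.554. Muscles of the same rat in different groups, paired by the labels, deviated together little (mean r = 0.0944 over 34 pairs). The left and right muscles of a control rat share a group and are not among these pairs. The model was also run on simulated log2 values with known changes, and the result of that run is not reported here. Promoters came from RefSeq on GRCr8.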

Additional observations from a re-analysis of the deposited data

Results flagged for a closer look

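Of 160 combinations of a gene with a group of 4 to 10 muscles, 14 held a muscle set apart from the rest by more than the 95% limit of Dixon's test, where chance alone gives about 1 in 20. The genes of 1 muscle vary together, so these combinations are not independent. Control muscle 4 was such a muscle for Pecam1 (9.53 TPM), Cdh5 (14.5 TPM) and Angpt1 (3.02 TPM). The third unrepaired muscle of running rats at 7 days was high for Pecam1 (136.9 TPM), Eng (113.4 TPM), Angpt2 (22.15 TPM) and Plvap (186.8 TPM). The first grafted muscle at 28 days was low for Cdh5 (30.93 TPM), Kdr (6.45 TPM) and Tie1 (17.12 TPM), and the second grafted muscle at 14 days was high for Tek (13.26 TPM) and Plvap (43.79 TPM). A contralateral muscle at 7 days was low for Tie1 (8.8 TPM), and a running grafted muscle at 3 days was low for Eng (72.76 TPM).

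Between days in unrepaired muscle, differences passed the adjusted p in limma for Cdh5 (0.487, adjusted p = 0.017), Kdr (0.571, 0.0025), Tie1 (-0.483, 0.015) and Angpt1 (0.601, 0.0093) from 3 to 7 days. From 7 to 14 days they did so for Pecam1 (-0.647, adjusted p = 0.00049), Tek (-0.502, 0.0015), Tie1 (-0.72, 2.5e-05), Eng (-0.692, 0.00024) and Plvap (-1.01, 0.0022). Only the last passed the fold threshold. Of all tested genes 38.7% passed the adjusted p over the first step and 71% over the second.

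Among the 9 libraries in no group, values above every control muscle were seen in 7 for Pecam1, 6 for Tek, 6 for Plvap, 5 each for Cdh5, Tie1, Angpt1 and Angpt2, 4 each for Kdr and Eng, and 0 for Flt1.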

How the results depend on the processing

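Summed over the 4 days, the number of calls among the 10 genes was 18 against control, 17 for unrepaired and 19 for grafted against contralateral muscle, 0 between grafted and unrepaired muscle, 1 for contralateral against control, 0 for running and 1 between days. By adjusted p alone these were 31 against control, 26 against contralateral, 8 for contralateral against control and 9 between days. After size factors they were 9 (5 higher and 4 lower), 7 (5 higher and 2 lower) and 8 (6 higher and 2 lower) for the first 3, where all calls on the deposited scale were higher, and 0 for contralateral against control and between days. With all libraries kept they were 15, 13, 13, 0, 0, 0 and 0 in the order above, and without rat 011 the count between days was 0. Leaving out 1 muscle gave 14 to 20, 15 to 18, 18 to 20, 0 to 0, 0 to 1, 0 to 0 and 0 to 1. With the rat as a replicate block the counts stayed at 18, 17, 19, 0, 1, 0 and 1. The log2 ratio of Angpt2 to Angpt1 differed at 3, 14 and 28 days by 0.872, 0.51 and -0.111 in unrepaired rats, at 3 and 14 days by 1.076 and 0.488 in grafted rats, and by 1.077 and 0.53 within rats (replicate block). In settings added after seeing the data, it was 0.302 at 3 days in unrepaired rats without the highest injured muscle and 0.473 at 7 days in unrepaired rats with both muscles. Without 1 muscle it ran from 0.933 to 1.144, 1.084 to 1.212, 0.425 to 0.566 and 0.002 to 0.254 at the 4 days. The 35 relative differences became 7 in unrepaired rats, 7 in grafted rats and 9 within rats, and 34 to 35 without 1 muscle.

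Against control, size factors turned the sign of Cdh5 at 3 days (-0.285), Kdr (-0.801, -0.191, -0.126 and -0.366), Tek at 3 days (-0.0184), Angpt2 (-0.526, -0.287, -0.0493 and -0.319), Angpt1 at 7, 14 and 28 days (-0.803, -0.282 and -0.0843) and Eng at 28 days (-8.16e-05). Relative to other endothelial genes the sign turned for Cdh5 at 3 and 7 days (-0.306 and -0.111), Kdr (-0.916, -0.637, -0.497 and -0.637), Tek (-0.132, -0.178, -0.239 and -0.185), Angpt2 (-0.636, -0.735, -0.419 and -0.588), Angpt1 at 7, 14 and 28 days (-1.28, -0.663 and -0.367) and Eng at 14 and 28 days (-0.0383 and -0.224). With all libraries Angpt1 at 7 days was -0.145. Leaving out 1 muscle, Kdr ran from -0.0273 to 0.352 at 3 days and from -0.0106 to 0.369 at 28 days and Angpt1 from -0.163 to 0.28 at 7 days, each lowest without control muscle 4. Flt1 ran from -0.319 to 0.0365 at 3 days and from -0.307 to 0.0493 at 7 days, highest without control muscle 2.

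Against contralateral muscle, size factors turned Tek at 3 days (-0.116), Kdr at 7, 14 and 28 days (-0.412, -0.267 and -0.272), Flt1 at 7 days (-1.01), Angpt1 at 7, 14 and 28 days (-0.882, -0.48 and -0.225) and Angpt2 at 7 and 28 days (-0.0257 and -0.331). Relative to endothelial genes Tek (-0.2, -0.122, -0.0964 and -0.0394), Kdr (-0.672, -0.538 and -0.491), Flt1 at 7 days (-1.25), Angpt1 (-1.17, -0.751 and -0.439), Angpt2 (-0.323, -0.241 and -0.55) and Eng at 28 days (-0.167) turned. In the higher-numbered rats Flt1 at 7 days was -0.0296. Without 1 muscle, Kdr ran from -0.0834 to 0.0685 and Angpt2 from -0.273 to 0.198 at 3 days, Flt1 from -0.217 to 0.149 and Angpt1 from -0.0847 to 0.236 at 7 days, and Angpt2 from -0.163 to 0.353 at 28 days. The cause was not tested.

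Over all genes, 5474 of 5954 calls against control at 3 days were higher, and after size factors 2739 were higher and 1884 lower. The filter on low values was applied again after size factors, so the counts before and after are not over the same set of tested genes. Size factors took the calls at 7 days against contralateral from 5365 to 3529 and those at 28 days from 1508 to 976. A pseudocount of 0.1 TPM took those against control at 14 and 28 days from 2889 and 2410 to 4480 and 4258. TPM sets no limit of detection that could be computed.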

Other observations

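The 9 libraries whose labels contradict each other entered no comparison. Over them Plvap ran from 5.61 to 34.79 TPM with a median of 16.28 TPM, Pecam1 from 18.56 to 52.31 TPM with a median of 26.82 TPM, and Flt1 from 11.29 to 14.91 TPM with a median of 13.63 TPM.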
